A study of Homo sapiens with 6 samples.

Results

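Aminoacyl-tRNA synthetases are the enzymes that load each tRNA with its amino acid. Of 36 listed synthetase genes, 33 were found by symbol among the 15761 genes of the table, 19 of 20 for enzymes of the cytosol and 14 of 16 for enzymes of the mitochondrion. All 33 passed the filter on low counts, so all were tested. The genes VARS, SARS2 and VARS2 were not analysed here. The rule takes members by name and uses no measured value, and older symbols are used as in the table (GARS is now GARS1).

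RNA was sequenced from SK-MES-1 cells, an established line labelled as lung squamous carcinoma and as wild type. The exosome group (3 libraries) was kept for 72 h in complete medium with 20 µg/ml of exosomes, small vesicles shed by lung fibroblasts. The fibroblasts were of IPF, idiopathic pulmonary fibrosis, in which the lung scars. The control group (3 libraries) had the same medium without exosomes, and no group received vesicles from other cells. Whether the libraries of a group came from separate cultures is not stated, and the p-values then rest on a spread between libraries that may be technical. In bulk RNA, fewer cells of a type and less RNA per cell cannot be told apart.

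Cytosolic and mitochondrial protein synthesis use separate enzymes for most amino acids, and most mitochondrial synthetases are encoded by nuclear genes of their own, whose names end in 2. GARS and KARS each make both forms from a single gene. Several cytosolic synthetases sit in the multisynthetase complex, held together by the scaffold proteins AIMP1, AIMP2 and EEF1E1. When amino acids run short, uncharged tRNA activates the kinase GCN2 (gene EIF2AK4), translation of the transcription factor ATF4 rises, and ATF4 induces many cytosolic synthetase genes together with amino acid transporters and the asparagine synthetase ASNS. ATF4 and its partners bind the C/EBP-ATF response element, which reads TGATGNAAN.

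That element was searched on both strands in the RefSeq window from 250 bases before to 50 bases after each gene's start (GRCh38.p14). Windows were found for 29 of the 33 synthetases; those of DARS, LARS, YARS and AARS2 were not matched. The letters occurred in 6 of 16 cytosolic and 1 of 13 mitochondrial windows. In all, 24.1% of the matched members held the element, against 3.67% of 27305 windows of the same length. Those windows were not limited to the genes tested here and were like the members' windows in length only. The stretches are shown with the element in capitals and each stretch read in the direction of its gene. The search fixed every letter of the element except those written N, so the likeness of the 9 letters between genes is mostly set by the search. On the opposite strand TGATGCAAC reads GTTGCATCA.

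AARS, chr16:70289676-70289704, minus strand: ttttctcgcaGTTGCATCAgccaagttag
CARS, chr11:3057408-3057436, minus strand: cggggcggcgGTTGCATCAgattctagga
IARS, chr9:92293693-92293721, minus strand: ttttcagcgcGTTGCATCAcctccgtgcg
MARS, chr12:57488053-57488081, plus strand: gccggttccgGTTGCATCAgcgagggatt
NARS, chr18:57621804-57621832, minus strand: ctacgctctcTGATGCAACgccggaatcg
TARS, chr5:33440956-33440984, plus strand: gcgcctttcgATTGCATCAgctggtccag
YARS2, chr12:32756076-32756104, minus strand: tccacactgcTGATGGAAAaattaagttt

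In CARS, IARS, MARS, NARS and TARS the element began within 15 bases of the gene start, and in AARS 188 bases before it. A match is a description of these letters and not a binding site.

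Library totals were 11346639 to 13334508 counts. Control library 3 and exosome library 3 lay apart from the others of their groups: chi-square per gene was 12.2 to 16.4 between control library 3 and the other controls against 2.32 between those. It was 7.42 to 9.72 between exosome library 3 and the other exosome libraries, against 3.18. A trend on base composition separated the groups. Set against the mean over libraries, log2 levels changed per 10 percentage points of GC content by -0.12, -0.14 and -0.21 in control libraries 1 to 3 and by 0.24, 0.17 and 0.06 in exosome libraries 1 to 3. Each change is therefore given as fitted and with this trend and that of transcript length removed, called corrected. The part of the trend in any single difference was not tested. Levels are given as CPM, the read count scaled to the library total and TMM factor. Epithelial markers were abundant (summed level 6399 to 6568 CPM in control and 4987 to 5268 CPM with exosomes; KRT8 was highest in both groups). The basal squamous keratins KRT5, KRT6A and KRT14 were each below 1 CPM on average in both groups, so these defining markers of the squamous label were at or near 0, and TP63 averaged 1.55 CPM in control and 2.21 CPM with exosomes. Of 8 fibroblast markers in the table, PDGFRA, COL3A1, THY1 and FAP were below 1 CPM in both groups and COL5A1 made up most of the summed level of 451 to 499 CPM in control and 461 to 544 CPM with exosomes. Of 8 leukocyte and endothelial markers, 3 (PTPRC, CD3E and VWF) were below 1 CPM in both groups, and the sum was 155 to 192 CPM in control and 198 to 211 CPM with exosomes, mostly CD68. The part of other cells or of RNA carried by the vesicles in the results was not tested.

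With exosomes, transcripts of several cytosolic synthetases fell by modest amounts, and as fitted GARS, IARS and EPRS fell most, while FARSA and HARS rose. Among mitochondrial synthetases IARS2 fell and HARS2 rose. Of the 19 cytosolic members, 9 were lower and 3 higher (edgeR's quasi-likelihood test, adjusted p under 0.05 over all genes), with a median log2 fold change of -0.18. Of the 14 mitochondrial members, 4 were higher and 2 lower, with a median of 0.10. Across all 12449 genes tested, 26.1% were lower and 25.6% higher, 51.7% in either direction, and the median was -0.00, so the 7 higher and 11 lower synthetases of 33 are near that background. The 3 control and 3 exosome libraries did not overlap for 9 synthetases that were higher and 13 that were lower with exosomes, against 29.2% and 30.2% of all genes (59.3% in either direction). Corrected, 8 cytosolic members were lower and 2 higher (median -0.07), and 2 mitochondrial members were higher and 2 lower (median -0.01), where 17.8% of all genes were lower and 17.3% higher (35.1% in either direction, median -0.01). Under scaling by library totals alone, 3 cytosolic members were lower (GARS, IARS and EPRS) and 3 higher, and 6 mitochondrial members were higher and 2 lower. That scaling moved the split of all calls from 3191 higher and 3244 lower to 3811 and 2496. Without exosome library 1, 4 cytosolic members were lower, and 2 mitochondrial members were higher and 1 lower. Without exosome library 2, 4 cytosolic members and 1 mitochondrial member were lower. Without control library 1, 5 cytosolic members were lower, and without control library 2, 1 mitochondrial member was. The 7 genes EPRS, GARS, IARS, IARS2, FARSA, HARS and HARS2 passed as fitted and in 15 alternatives at the 0.05 threshold, the correction included. With the correction and each library left out in turn, HARS2 passed in 4 of 6 fits and the other 6 genes in all 6.

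**Figure D1:**
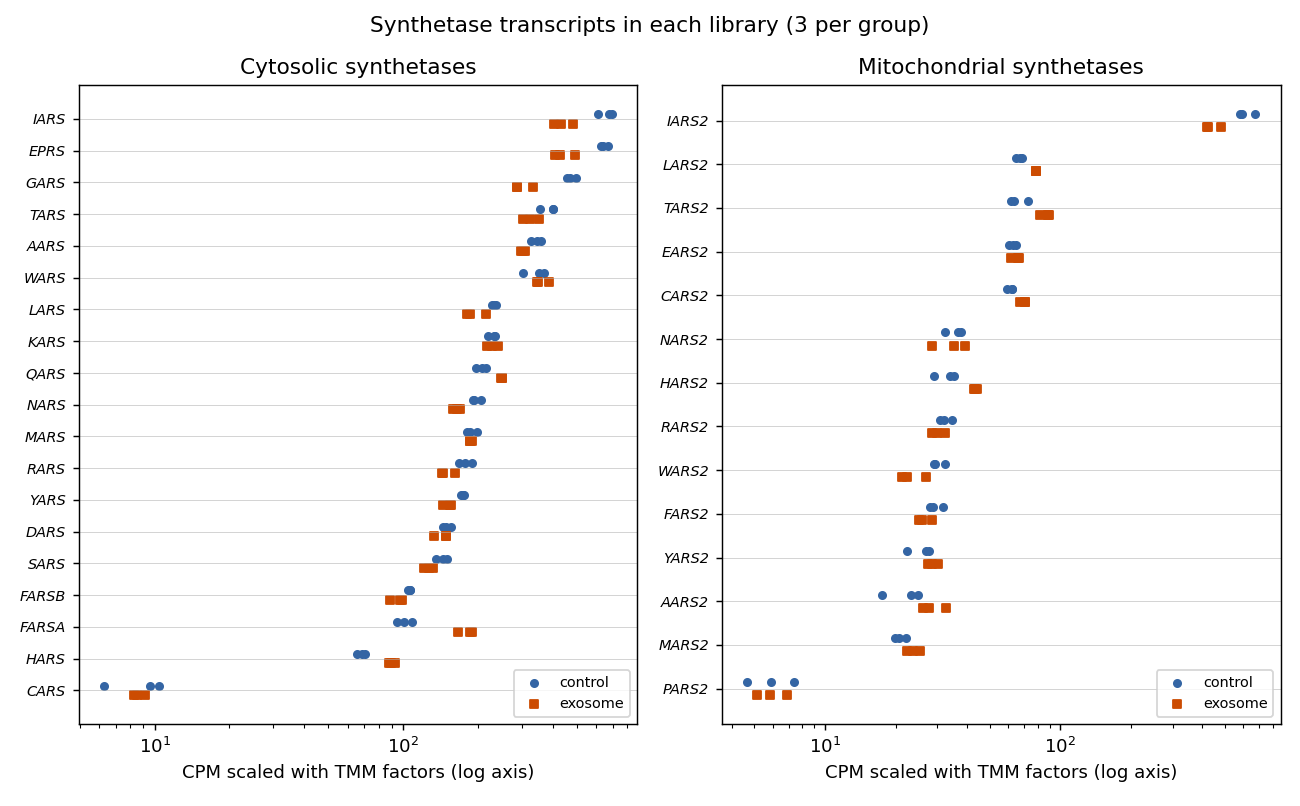
Level of each synthetase in each library in CPM scaled with TMM factors, on a log axis, with control libraries as circles and exosome libraries as squares. IARS, EPRS, GARS and IARS2 are among the most abundant and lie lower with exosomes in all 3 libraries.

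The levels of different genes were compared by the authors' FPKM, which scales reads to transcript length as well as depth. In control cells, cytosolic members had a median of 69.8 and mitochondrial members of 12.3. GARS was highest at 174 ± 5.38 FPKM (mean ± SD, n = 3), followed by the mitochondrial IARS2 at 168 ± 15.3, IARS at 134 ± 10.5 and EPRS at 125 ± 4.27. GARS and IARS2 did not differ beyond their spread, nor did IARS and EPRS. The lowest were PARS2, the mitochondrial prolyl enzyme, at 2.48 ± 0.596 FPKM and CARS at 2.73 ± 0.699, again within their spread. Of 32 neighbours in the order, 14 lay closer than the larger of their SDs. All synthetase transcripts together were a small share of reads: the cytosolic ones took 0.462% to 0.477% of counts in control libraries and 0.413% to 0.442% in exosome libraries, and the mitochondrial ones 0.103% to 0.116% and 0.0991% to 0.104%. Groups overlapped for the mitochondrial share and not for the cytosolic one.

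GARS loads glycine onto tRNA in both compartments (GRCh38, as for all gene positions given, chromosome 7, 30594681 to 30634033, plus strand). Its levels were 496, 472 and 457 CPM in control libraries 1 to 3 and 288, 288 and 335 CPM in exosome libraries 1 to 3. All exosome libraries lay below all controls. The log2 fold change was -0.64 ± 0.079 (SE; adjusted p = 1.55e-06), a fold of 1.56, and the corrected value was -0.71 ± 0.064 (adjusted p = 5.41e-08). Its transcript has a GC content of 48.6%, and genes in the same of 10 bins of GC content had a median log2 fold change of 0.04. In GENCODE 29 the divergent noncoding gene GARS-DT overlaps GARS on the other strand, and whether counting used strand is not stated. The same holds for antisense genes at FARSA, LARS, DARS, CARS, WARS, NARS2 and WARS2, and for exons of other coding genes that overlap those of YARS, WARS, KARS, AARS2, CARS2 and EARS2.

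IARS, the isoleucyl enzyme of the multisynthetase complex (chromosome 9, 92210207 to 92293756, minus strand), is one of the genes with the response element shown above. It had 607, 672 and 694 CPM in control and 404, 431 and 482 CPM with exosomes. The groups did not overlap, and the log2 fold change was -0.58 ± 0.082 (adjusted p = 6.87e-06; corrected -0.40, adjusted p = 3.37e-05). EPRS, a single protein that loads both glutamate and proline and belongs to the same complex (chromosome 1, 219968601 to 220046658, minus strand), had 628, 667 and 639 CPM in control and 408, 428 and 490 CPM with exosomes. These groups did not overlap either (log2 fold change -0.54 ± 0.080, adjusted p = 1.1e-05; corrected -0.33, adjusted p = 0.000161). Exosome library 3 was the highest of its group for GARS, IARS and EPRS.

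IARS2 encodes the mitochondrial isoleucyl enzyme and follows EPRS on chromosome 1 (220094102 to 220148041, plus strand), with 47443 bases between the genes. It had 591, 582 and 673 CPM in control and 419, 423 and 480 CPM with exosomes, again without overlap (log2 fold change -0.48 ± 0.081, adjusted p = 5.03e-05; corrected -0.35, adjusted p = 0.000224). The level of IARS over that of IARS2, as log2 of the FPKM ratio, was -0.33 ± 0.097 in control and -0.43 ± 0.043 with exosomes (mean ± SD, n = 3). All exosome libraries lay below all controls, the nearest at -0.40 and -0.39, and the ratio was not tested.

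**Figure D2:**
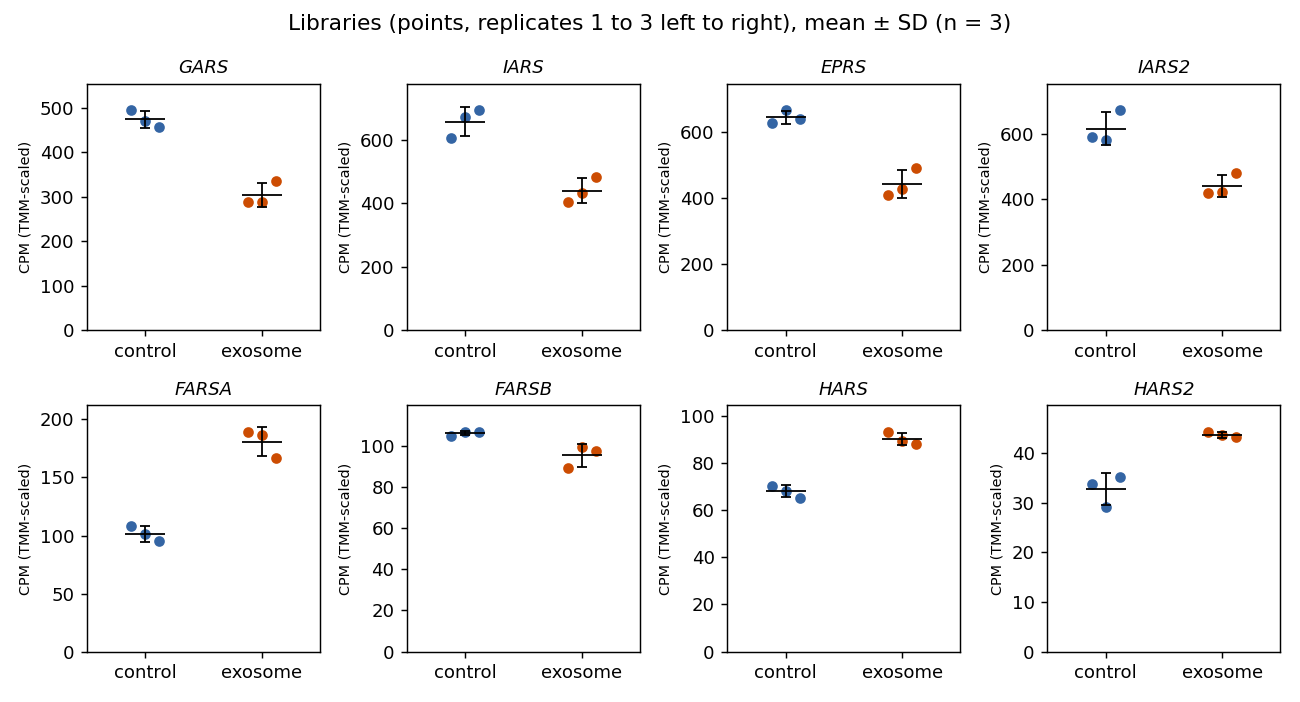
Levels in CPM of 8 synthetases in the control and exosome libraries, as points with mean ± SD (n = 3) and axes starting at 0. GARS, IARS, EPRS and IARS2 are lower and FARSA, HARS and HARS2 higher in every exosome library, whereas FARSB changes little.

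FARSA and FARSB encode the alpha and beta subunits of the cytosolic phenylalanyl enzyme, which works as a tetramer of both. FARSA (chromosome 19, 12922479 to 12934037, minus strand) had 108, 101 and 94.9 CPM in control and 189, 187 and 166 CPM with exosomes. The exosome libraries were all higher, and the log2 fold change of 0.83 ± 0.081 (adjusted p = 6.86e-08), a fold of 1.78, was the largest of all 33 members as fitted. Corrected it was 0.39 ± 0.056 (adjusted p = 2.1e-05), smaller in size than those of GARS, HARS, YARS and IARS and near that of SARS (-0.39). The FARSA transcript has a GC content of 60.3%, and genes in the same GC bin had a median of 0.36. FARSB (chromosome 2, 222570536 to 222656337, minus strand) had 105, 106 and 107 CPM in control and 89.0, 99.2 and 97.6 CPM with exosomes. Its exosome libraries were the lower ones, but the log2 fold change of -0.15 (95% confidence interval -0.32 to 0.01) did not pass (adjusted p = 0.106; corrected 0.04, adjusted p = 0.654). As log2 of the FPKM ratio, FARSA over FARSB stood at 0.73, 0.61 and 0.52 in control and 1.78, 1.60 and 1.46 with exosomes, without overlap. In linear terms the mean ratio was 1.54 in control and 3.06 with exosomes. The GC contents of the subunits' transcripts differ (60.3% and 41.6%), and the part of the trend on GC in this ratio was not tested.

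HARS and HARS2 encode the cytosolic and mitochondrial histidyl enzymes and lie head to head on chromosome 5. HARS (140673904 to 140691862, minus strand) had 70.2, 68.2 and 65.2 CPM in control and 93.2, 89.2 and 87.9 CPM with exosomes. All exosome libraries were higher (log2 fold change 0.41 ± 0.081, adjusted p = 0.000248; corrected 0.45, adjusted p = 3.09e-05). HARS2 (140691426 to 140699318, plus strand) had 33.8, 29.04 and 35.2 CPM in control and 44.2, 43.5 and 43.2 CPM with exosomes, also without overlap (log2 fold change 0.41 ± 0.099, adjusted p = 0.00145; corrected 0.29, adjusted p = 0.0142). With the correction, HARS2 passed in 4 of 6 fits that each left out 1 library, and missed without control library 2 or exosome library 1 (highest adjusted p = 0.0951). As log2 of the FPKM ratio, HARS over HARS2 was 0.48 ± 0.17 in control and 0.47 ± 0.025 with exosomes (mean ± SD, n = 3). In GENCODE 29 the genes share 437 exonic bases on opposite strands, 5.56% of the exonic bases of HARS and 11.7% of those of HARS2, so without knowing the use of strand their reads in that stretch cannot be told apart. Exons of HARS also overlap 221 bases of WDR55 on the other strand, and those of HARS2 overlap 152 bases of ZMAT2 on the same strand. The 84 bases between the RefSeq starts of the genes, at positions 140691370 and 140691455, are shown on the plus strand because both genes are read outward from them.

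HARS to HARS2, chr5:140691371-140691454, plus strand: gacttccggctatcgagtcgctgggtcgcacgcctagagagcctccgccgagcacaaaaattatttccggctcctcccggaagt

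The other cytosolic members that passed in the corrected fit were AARS, SARS, YARS, NARS and MARS, and all of them were lower. AARS (alanine) had 329, 345 and 358 CPM in control and 300, 309 and 303 CPM with exosomes. SARS (serine) had 145, 151 and 135 against 122, 132 and 128 CPM, and YARS (tyrosine) 172, 176 and 174 against 145, 154 and 155 CPM. In these genes the groups did not overlap, and the differences were small before correction: -0.18 for AARS (adjusted p = 0.0466), -0.18 for SARS (adjusted p = 0.0594) and -0.20 for YARS (adjusted p = 0.0274). Their transcripts have GC contents of 51.5% to 55.7%, and the medians of their GC bins were 0.16 for AARS, 0.04 for SARS and 0.30 for YARS. With GC content and length corrected together, the values were larger: -0.35 (adjusted p = 7.41e-05), -0.39 (adjusted p = 3.55e-05) and -0.45 (adjusted p = 1.21e-05). The parts of GC content and of length in these shifts were not tested apart. Uncorrected, AARS lost its call without any library except exosome library 3 (adjusted p up to 0.157), and with library totals (adjusted p = 0.282), RLE size factors or no filter. YARS held it only where control library 3 or exosome library 3 was the one left out (adjusted p up to 0.118 otherwise), and lost it with library totals (adjusted p = 0.181) and with no filter. SARS passed uncorrected without control library 3. Corrected, AARS, SARS and YARS passed without each of the 6 libraries.

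NARS (asparagine) had 191, 193 and 206 CPM in control and 159, 164 and 170 CPM with exosomes, without overlap (log2 fold change -0.26, adjusted p = 0.0064; corrected -0.16, adjusted p = 0.0286). With library totals its adjusted p was 0.0517, and the corrected call held in 2 of the 6 fits that left out a library (adjusted p up to 0.104). MARS (methionine), whose exons overlap those of ARHGAP9 (519 bases) and of the stress factor gene DDIT3 (355 bases) on the other strand, had 181, 186 and 198 CPM in control and 190, 186 and 186 CPM with exosomes. Its groups overlapped, and the log2 fold change was -0.01 (adjusted p = 0.922) but -0.19 corrected (adjusted p = 0.0136). The corrected call of MARS was lost without exosome library 1 or exosome library 2 (adjusted p up to 0.0685).

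LARS, RARS, TARS and QARS passed as fitted and not in the corrected fit. Under the correction, RARS passed in 2 and TARS in 1 of the 6 fits that left out a library. RARS also passed when the corrected model held the replicate number. LARS (leucine; -0.27, adjusted p = 0.00786), RARS (arginine; -0.25, adjusted p = 0.0128) and TARS (threonine; -0.24, adjusted p = 0.0156) fell. QARS, the glutamine enzyme, rose from 209, 197 and 216 CPM to 251, 251 and 249 CPM (0.27, adjusted p = 0.00375). Corrected values were -0.01 (LARS, adjusted p = 0.913), -0.15 (RARS, adjusted p = 0.0629), -0.07 (TARS, adjusted p = 0.428) and 0.01 (QARS, adjusted p = 0.902). With library totals the falls of LARS, RARS and TARS did not pass (adjusted p = 0.0504, 0.0769 and 0.0927). They also missed the threshold without exosome library 2 (adjusted p = 0.0594, 0.0816 and 0.0621). Without exosome library 1, LARS narrowly missed the threshold, and RARS and TARS missed it with an adjusted p of 0.0527 and 0.0909. RARS and TARS also missed it without control library 1 (adjusted p = 0.0935 and 0.0898), and TARS without control library 2 (adjusted p = 0.0953).

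**Figure D3:**
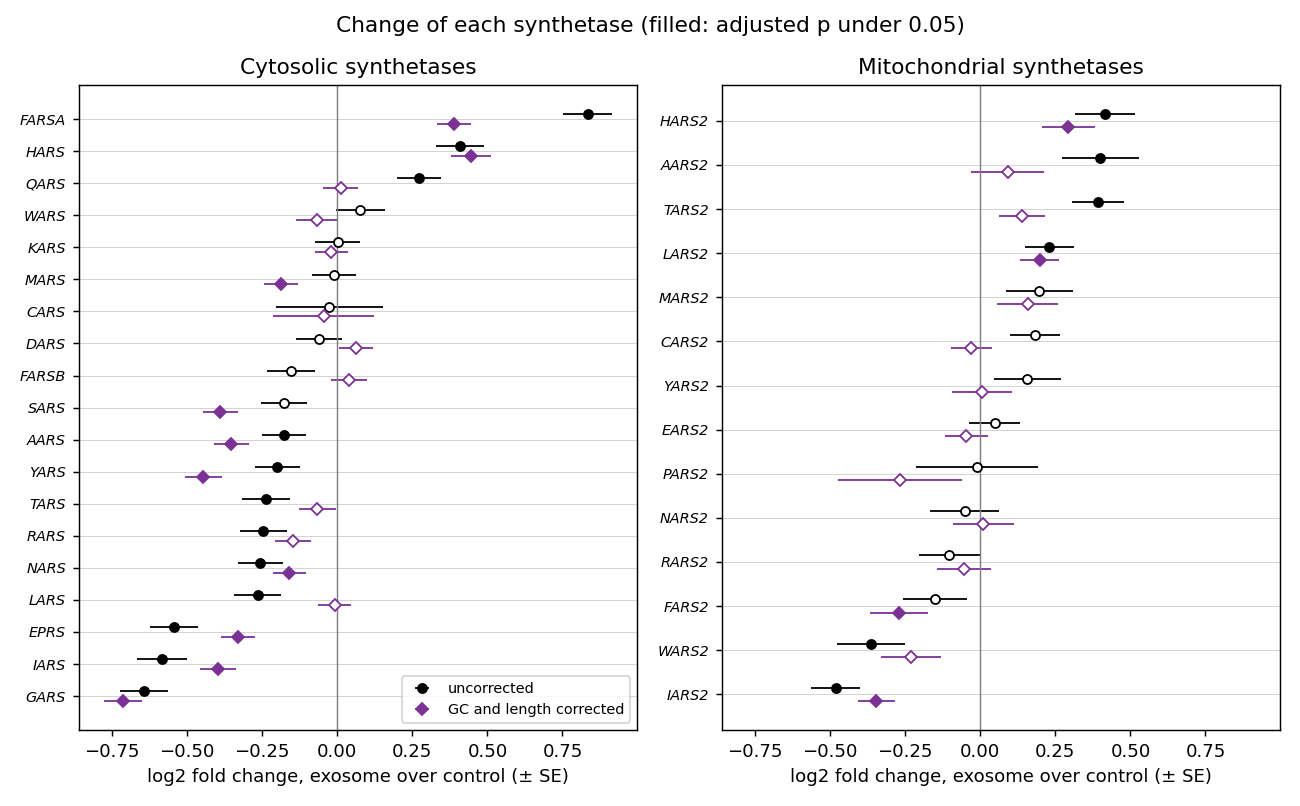
Log2 fold change of exosome over control for each synthetase, with SE, as fitted (circles) and with the trend on GC content and length removed (diamonds); filled symbols have an adjusted p under 0.05. GARS, IARS, EPRS and IARS2 stay lower and FARSA, HARS, HARS2 and LARS2 higher in both fits, while QARS, AARS2 and TARS2 move towards 0.

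Of the other cytosolic members, KARS, DARS, WARS and CARS passed in neither fit. KARS (lysine) had a log2 fold change of 0.00 (95% confidence interval -0.15 to 0.16) and DARS (aspartate) of -0.06 (-0.22 to 0.10). WARS, the tryptophanyl enzyme, which interferon gamma is known to induce, had 354, 368 and 305 CPM in control and 351, 347 and 386 CPM with exosomes. Its groups overlapped (log2 fold change 0.08, interval -0.09 to 0.25, adjusted p = 0.451; corrected -0.07, adjusted p = 0.48), and without control library 3 the corrected value passed as lower (-0.14, adjusted p = 0.0387). CARS (cysteine) was measured at 6.26 to 10.5 CPM, which leaves a wide interval of -0.40 to 0.35 around its value of -0.03.

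The counts of subgroups that follow stand beside 26.1% lower and 25.6% higher among all genes as fitted, and 17.8% and 17.3% corrected. By place in the cell, the 8 members of the multisynthetase complex counted 4 lower and 1 higher (median -0.15). Corrected, the 3 that passed were all lower (median -0.08). The 11 cytosolic members outside it counted 5 lower and 2 higher (median -0.18; corrected 5 and 2, median -0.07). By fold of the catalytic domain, 4 of 8 class I members were lower and 1 higher, and 4 of 10 class II members lower and 2 higher (EPRS holds both classes and is in neither count). Of the 6 cytosolic members with the response element in the window, 4 passed and all of them were lower (AARS, IARS, NARS and TARS). Corrected, 4 passed as well and were lower (AARS, IARS, MARS and NARS). Of the 10 matched cytosolic members without it, 3 were lower, GARS and EPRS among them, and 3 higher, and corrected 3 were lower and 2 higher. None of these differences between subgroups was tested.

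Among the mitochondrial enzymes, LARS2 (leucine) passed in both fits beside HARS2 and IARS2. It had 67.7, 64.8 and 68.9 CPM in control and 79.2, 78.5 and 78.7 CPM with exosomes, without overlap (log2 fold change 0.23, adjusted p = 0.0208; corrected 0.20, adjusted p = 0.022). Leaving out control library 2 or either of exosome libraries 1 and 2 ended that call (adjusted p up to 0.0869). TARS2 (threonine) rose from 61.4, 63.7 and 72.9 to 89.1, 89.0 and 81.9 CPM (0.39, adjusted p = 0.000769), and AARS2 (alanine) from 17.5, 23.1 and 24.8 to 32.7, 27.5 and 26.1 CPM (0.40, adjusted p = 0.0128). Corrected, TARS2 stood at 0.14 (adjusted p = 0.168) and AARS2 at 0.09 (adjusted p = 0.595), and AARS2 also missed the threshold without exosome library 1 or control library 1 (adjusted p up to 0.0941). WARS2 (tryptophan) fell from 29.1, 32.4 and 29.3 to 21.2, 22.4 and 26.9 CPM (-0.36, adjusted p = 0.0106; corrected -0.23, adjusted p = 0.0757), and missed the threshold without control library 2 or either of exosome libraries 1 and 2 (adjusted p up to 0.0668).

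FARS2, the mitochondrial phenylalanyl enzyme, had 31.6, 28.7 and 27.8 CPM in control and 25.0, 25.8 and 28.4 CPM with exosomes, with overlap. It was lower in the corrected fit only (-0.27, adjusted p = 0.0335, against -0.15, adjusted p = 0.244), and there in 2 of the 6 fits that left out a library. The other 7 mitochondrial members passed in neither fit. Their log2 fold changes were 0.18 for CARS2 (cysteine; adjusted p = 0.0719), 0.20 for MARS2 (methionine), 0.16 for YARS2 (tyrosine), 0.05 for EARS2 (glutamate), -0.01 for PARS2, -0.05 for NARS2 (asparagine) and -0.10 for RARS2 (arginine). In CARS2 and MARS2 all exosome libraries lay above all controls, as 29.2% of all tested genes did. PARS2 was measured at 4.66 to 7.40 CPM, and its interval of -0.43 to 0.41 is wide.

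**Figure D4:**
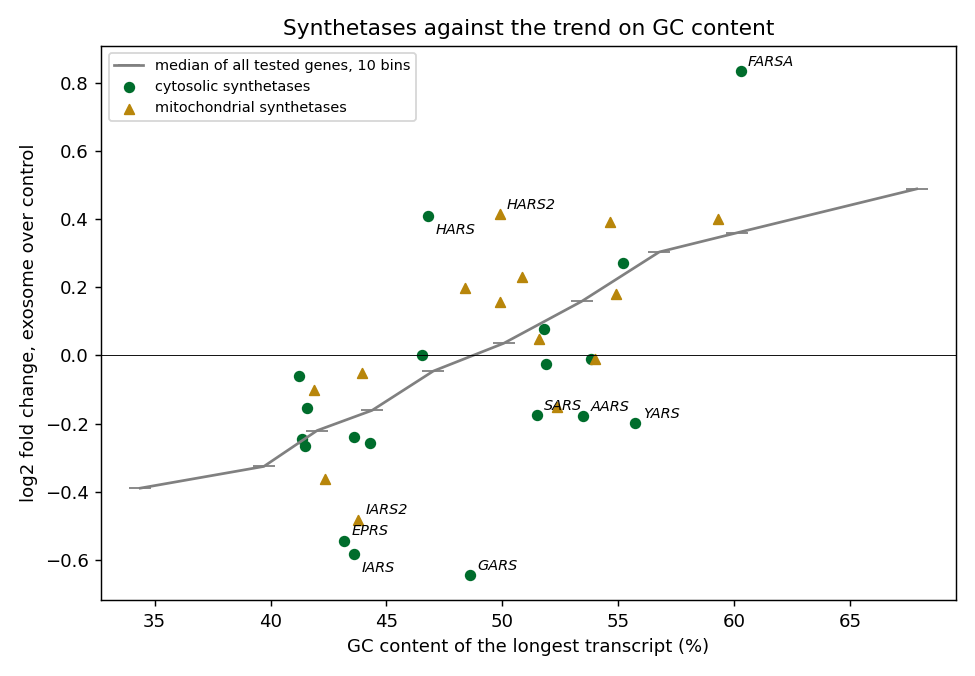
Log2 fold change of each synthetase against the GC content of its longest transcript, with the median of all tested genes in 10 bins of GC content (grey line). The line rises from -0.39 to 0.49; GARS, IARS, EPRS, IARS2, AARS, SARS and YARS lie below it, and FARSA, HARS and HARS2 above it.

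Across all genes the median log2 fold change went from -0.39 in the lowest of 10 bins of GC content to 0.49 in the highest. The widest departures of synthetases from the median of their GC bin were those of GARS (-0.64 against 0.04), YARS (-0.20 against 0.30), FARSA (0.83 against 0.36) and HARS (0.41 against -0.05). LARS (-0.27 against -0.22), RARS (-0.25 against -0.22), QARS (0.27 against 0.30) and AARS2 (0.40 against 0.36) lay close to it. In the authors' deposited table, 7 synthetases were higher and 11 lower at an adjusted p under 0.05, and all 33 had the same call there as in the uncorrected fit.

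Among genes of the amino acid response, asparagine synthetase and several transporters were lower. Of 30 tested, 11 were lower and 7 higher (median -0.07), against 26.1% and 25.6% of all genes. Corrected, 13 were lower and 4 higher (median -0.22), against 17.8% and 17.3%. The 4 became 1 without exosome library 2 and 2 without exosome library 1, while 12 to 15 were lower in the corrected fits without 1 library. ASNS, which makes asparagine and is a standard target of ATF4, fell from 133 ± 14.0 to 68.2 ± 3.99 CPM (mean ± SD, n = 3; log2 fold change -0.96, adjusted p = 2.82e-08; corrected -1.01). PSAT1, an enzyme of serine synthesis, fell from 157 ± 5.61 to 94.7 ± 7.63 CPM (-0.73, adjusted p = 4e-07; corrected -0.65). The cystine transporter SLC7A11 (-1.14, adjusted p = 2.72e-08; corrected -0.60) and the neutral amino acid transporter SLC38A2 (-0.76, adjusted p = 2.56e-07; corrected -0.40) fell as well. CEBPB and SHMT2, named after their values were seen, rose in both fits. For CEBPB the log2 fold change was 1.07 (adjusted p = 0.000313) and corrected 0.47 (adjusted p = 0.00018). For SHMT2 it was 0.47 (adjusted p = 0.000101) and corrected 0.20 (adjusted p = 0.0172). ATF4 and EIF2AK4, likewise named afterwards, went in opposite directions. ATF4 transcripts rose from 143 ± 11.2 to 183 ± 22.4 CPM (0.36, adjusted p = 0.00201), but the corrected value was 0.00 (adjusted p = 0.972). EIF2AK4 fell (-0.34, adjusted p = 0.00111; corrected -0.23, adjusted p = 0.00389). ATF4 is controlled largely in translation, which transcript levels do not show.

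**Figure D5:**
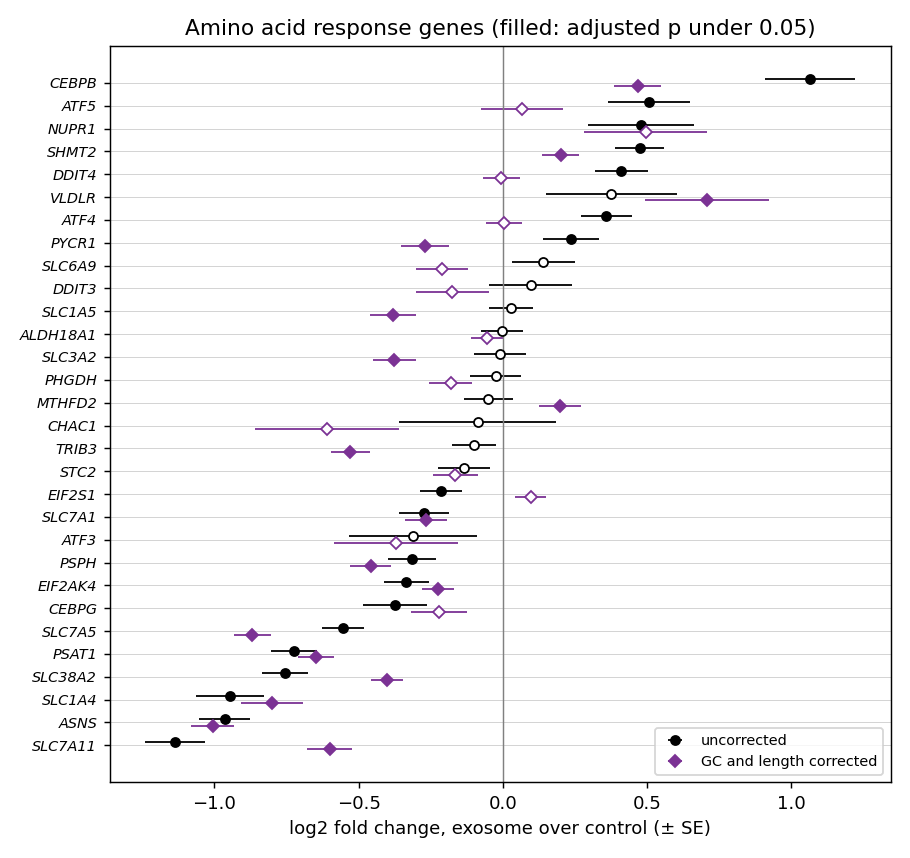
Log2 fold change of exosome over control for 30 amino acid response genes, with SE, as fitted (circles) and corrected (diamonds); filled symbols have an adjusted p under 0.05. ASNS, SLC7A11, PSAT1 and SLC38A2 lie below 0 in both fits, and ATF4 passes only as fitted.

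Of 13 tested partners of the synthetases, 2 passed and both were lower (median -0.15), and corrected only 1 passed, as higher (median -0.01), where 51.7% of all genes passed as fitted and 35.1% corrected. As fitted, 1 was lower without control library 1, exosome library 1 or exosome library 3, and 3 were lower without any other library. XPOT, which exports tRNA from the nucleus, fell from 282 ± 13.2 to 207 ± 12.99 CPM (-0.45, adjusted p = 5.68e-05; corrected -0.12, adjusted p = 0.0821). SEPSECS, which completes selenocysteine on its tRNA, fell by 0.33 on the log2 scale (adjusted p = 0.0258; corrected 0.06, adjusted p = 0.713). The deacylase DTD2 (-0.33, adjusted p = 0.0566) and the scaffold AIMP2 (0.28, adjusted p = 0.0967) did not pass, nor did the other scaffold genes AIMP1 (-0.19, adjusted p = 0.103) and EEF1E1 (-0.07, adjusted p = 0.776), which were named after their values were seen. The corrected rise was that of GATB (0.33, adjusted p = 0.00438), likewise named afterwards, a subunit of the mitochondrial amidotransferase that makes glutaminyl-tRNA in place of a synthetase.

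Of 43 genes of tRNA processing and modification, 14 were higher and 5 lower (median 0.12), against 25.6% and 26.1% of all genes. The 5 became 2 with library totals or without control library 1, exosome library 1 or exosome library 2, and 3 without control library 2, with DESeq2 or with no filter. Corrected, 15 were higher and 1 lower (median 0.18; all genes 17.3% and 17.8%), but without exosome library 2 the corrected count of higher genes was 5, and without exosome library 1 it was 7. The lower gene did not pass without either of these or without control library 1. POP7, a subunit of RNase P, rose from 21.9 ± 0.708 to 41.0 ± 5.59 CPM (0.90, adjusted p = 1.8e-06; corrected 0.29, adjusted p = 0.0317). GTPBP3, which modifies mitochondrial tRNA (0.86, adjusted p = 2.74e-06; corrected 0.47), the tRNA methyltransferase TRMT1 (0.66, adjusted p = 4.37e-06; corrected 0.28) and HSD17B10, a subunit of mitochondrial RNase P (0.73, adjusted p = 7.59e-06; corrected 0.22, adjusted p = 0.0488), rose too. Of 15 mitochondrial translation factors, 4 were higher and 3 lower (median -0.03) and corrected 3 and 1, where 51.7% of all genes passed as fitted and 35.1% corrected. Without exosome library 2, 2 were higher as fitted, and corrected edgeR's test gave 0 (3 at an unadjusted p under 0.05). The corrected count was 1 without control library 2, control library 3 or exosome library 3, and 2 without exosome library 1. LRPPRC, which stabilises mitochondrial mRNA, fell (-0.55, adjusted p = 1.8e-05; corrected -0.27) and TACO1, a translational activator of a cytochrome oxidase subunit, rose (0.50, adjusted p = 0.000381; corrected 0.26). The elongation factors TUFM (0.35, adjusted p = 0.00081) and GUF1 (-0.38, adjusted p = 0.0008) changed only without correction (corrected -0.03 and -0.08).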

How the data were processed

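Read counts per gene, which the authors deposited as whole numbers, were tested for 3 control and 3 exosome libraries. STAR and GRCh38 are named in the submitters' processing notes. No source used here names the counting program, its annotation or its strand setting. Per the file headers the same table holds the authors' FPKM, used here only for levels per transcript length, a normalised signal of the deposited counts that was not used, and the authors' log2 fold changes with p-values.

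Counts were tested with edgeR 4.0.16 (filterByExpr, TMM factors, robust quasi-likelihood test of a model holding group alone), with Benjamini-Hochberg adjustment over 12449 genes and a threshold of 0.05. CPM is the count scaled to the library total times its TMM factor. By the library totals alone, before the TMM factor, 1 CPM is about 11.3 to 13.3 reads. In the corrected fit, each library's trend on GC content and log2 length of the longest GENCODE 29 transcript (robust loess, span 0.3) entered as an offset. The code was run on simulated counts with known changes, with and without a trend on GC content and length. That trend was made by the same loess as the correction, so such a run cannot tell whether the real trend is technical. Intervals cover these libraries only.

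Sample titles gave group and replicate number. The members are a family named by function, with no measured value in the rule, but the choice of this family and of the lists was made with earlier results of these data known. Every member found is named. Each other list gives up to 4 members with the smallest adjusted p; other names were chosen after their values were seen and are marked so. Members given with a value in every library are those past the threshold in the corrected fit, with a few others added after their values were seen. Alternatives were RLE size factors, library totals, other filters, DESeq2 1.42.0, limma-voom (limma 3.58.1), a threshold of 0.01, a replicate block, the correction, and leaving out each library. Leaving out libraries under the correction was added after seeing the data. Table positions lie 1 base below GENCODE 29 for all 15490 genes compared, so positions are given counted from 1. Windows around gene starts came from RefSeq (GRCh38.p14).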

Additional observations from a re-analysis of the deposited data

How the results depend on the processing

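Lower cytosolic synthetases (9 as fitted) numbered 3 with library totals and 5 at a threshold of 0.01. Higher mitochondrial synthetases (4 as fitted) numbered 2 with the correction, 2 with the correction and a replicate block, and 2 at the threshold of 0.01, where 1 mitochondrial synthetase was lower. Leaving out each library in turn, with or without the correction, gave 4 to 10 lower cytosolic synthetases, 0 to 5 higher and 1 to 3 lower mitochondrial ones, 1514 to 3234 higher and 1541 to 3375 lower genes in the whole table, and 7 to 26 higher genes in the partner and pathway lists (25 as fitted). The count of 0 is edgeR's, corrected, without control library 2 or exosome library 1 (2 in each at an unadjusted p under 0.05; no other tool was run with the correction). In the same fits the log2 fold change of LARS ran from -0.348 to 0.0143, QARS from -0.0263 to 0.316, WARS from -0.138 to 0.142 and AARS2 from -0.0617 to 0.521, with the change of sign under the correction only. DESeq2, limma-voom and a filter at 1 CPM kept the call of all 33 synthetases. RLE size factors ended that of AARS, and no filter those of AARS and YARS.

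The replicate numbers were not taken to pair the libraries: the correlation of same-numbered deviations was 0.0664, 0.103 and 0.206, not above 0.1 for every pair, although each library correlated best with its own number. With the replicate block, 3444 genes were higher and 3524 lower, against 3191 and 3244. It gave 11 lower and 3 higher cytosolic and 5 higher and 2 lower mitochondrial synthetases, adding FARSB (adjusted p = 0.0464), SARS (0.0184) and CARS2 (0.0397). With 3 libraries a group, CARS and PARS2, at a lowest count of 69 and 57 reads, had the widest intervals of the 33.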
